A study of Homo sapiens with 2 samples.

Results

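The potassium, sodium and calcium channel subunits examined here are the 140 genes of 23365 whose symbols begin with KCN, begin with CACNA, CACNB or CACNG, or have the form SCN, a number and A or B. They comprise 100 KCN genes, 14 SCN genes and 26 CACN genes; the epithelial sodium channel genes named SCNN1 are not among them. Their levels were measured by poly(A) RNA sequencing in A673 cells, an established human Ewing sarcoma line driven by the fusion protein EWS/FLI1. One library came from A673 cells stably carrying a lentiviral short hairpin RNA against the transcription factor RUNX3 (sh813) and the other from A673 cells carrying a non-target hairpin (shNT). Both populations were transduced with virus made in HEK 293T cells and selected with puromycin, only 1 RUNX3 hairpin was used, and each title calls its library a pool. The design text gives the question as how the RUNX3 hairpin and the non-target hairpin differ in their transcriptomes.

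Voltage-gated channels open a pore for potassium, sodium or calcium ions when the membrane potential changes. The pore is made by alpha subunits, and auxiliary subunits set how many channels reach the surface and how they gate. Potassium channels hold the resting potential of nearly all cells, sodium channels carry the fast upstroke of action potentials in nerve and muscle, and calcium channels turn depolarization into a calcium signal. Dividing cells without action potentials also express some of these genes, above all potassium channels.

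With 1 library a group, the spread between cultures is unknown and no difference was tested. Each interval given is the exact binomial one at 95% and reflects counting error alone. GEO's titles and its shRNA characteristics name opposite hairpins for both libraries. Here each library goes by its title, as the 813 library or the NT library, and every direction would be the opposite if the characteristics were right. RUNX3, the targeted gene, had 387 read pairs in the 813 library and 1391 in the NT library, a log2 fold of -1.92 (-2.09 to -1.76), which goes with the titles. Gene-assigned pairs came to 23342660 and 24326135. CD99, the surface protein that marks Ewing sarcoma, stood at 4026 and 3808 CPM, the pair count relative to the scaled library size. All 8 Ewing sarcoma markers were measured and 3 of them, NKX2-2, NR0B1 and PAX7, were lower in the 813 library, while none of 6 skeletal muscle markers reached 1 CPM. Of 8 neuron markers, 5 were measured and their list summed to 31.9 CPM in the 813 library and 53.5 CPM in the NT library, with STMN2 and ELAVL4 at 0 pairs in both. SYP alone, singled out after its value was seen, stood at 13.1 and 36.5 CPM, and without it the list summed to 18.8 and 17.0 CPM. That sum joins markers that differed in opposite directions. SYT1 stood at 12.0 and 6.46 CPM, NEFL at 2.98 and 5.26 CPM and RBFOX3 at 0.327 and 2.07 CPM. In bulk RNA, fewer cells expressing a gene and less of its RNA per cell cannot be told apart.

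Most channel genes were silent or nearly so. No pair was found in either library for 36 of the 140, which allows up to 0.123 CPM in the 813 library and 0.129 CPM in the NT library (3 pairs), and another 61 had pairs but stayed under 1 CPM in both. The remaining 43 genes (30.7%) reached 1 CPM in at least 1 library and are called measured, against 52.4% of all genes. By ion, 13 of 26 calcium, 27 of 100 potassium and 3 of 14 sodium channel genes were measured. None of the 5 other records (the noncoding KCNQ1OT1, KCNQ1DN, KCNIP4-IT1 and KCNJ2-AS1, and KCNRG) was measured.

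A measured gene was called higher or lower in the 813 library when it differed at least 2-fold and its whole interval lay past 1.5-fold. By this rule 7 of the 43 measured channel genes were higher (16.3%) and 5 were lower (11.6%). Over all 12254 measured genes, 8.13% were called higher and 3.48% lower, 11.6% in either direction, against 27.9% of the channel genes. The median log2 fold of the measured channel genes was -0.07, beside 0.01 for all measured genes, with 18 above 0 and 25 below. With plain total counts these medians were 0.07 and 0.15. The higher genes included KCNA2, KCNE3, KCNMB3, KCNJ12, CACNA1C and CACNA2D1, and the lower genes were KCNV1, KCNJ4, KCNJ11, CACNA1H and CACNA1I. Both the potassium and the calcium channel genes held calls in both directions. A further 13 measured genes differed 1.5-fold or more without being called, 5 above and 8 below, and 18 differed by less than 1.5-fold.

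**Figure D1:**
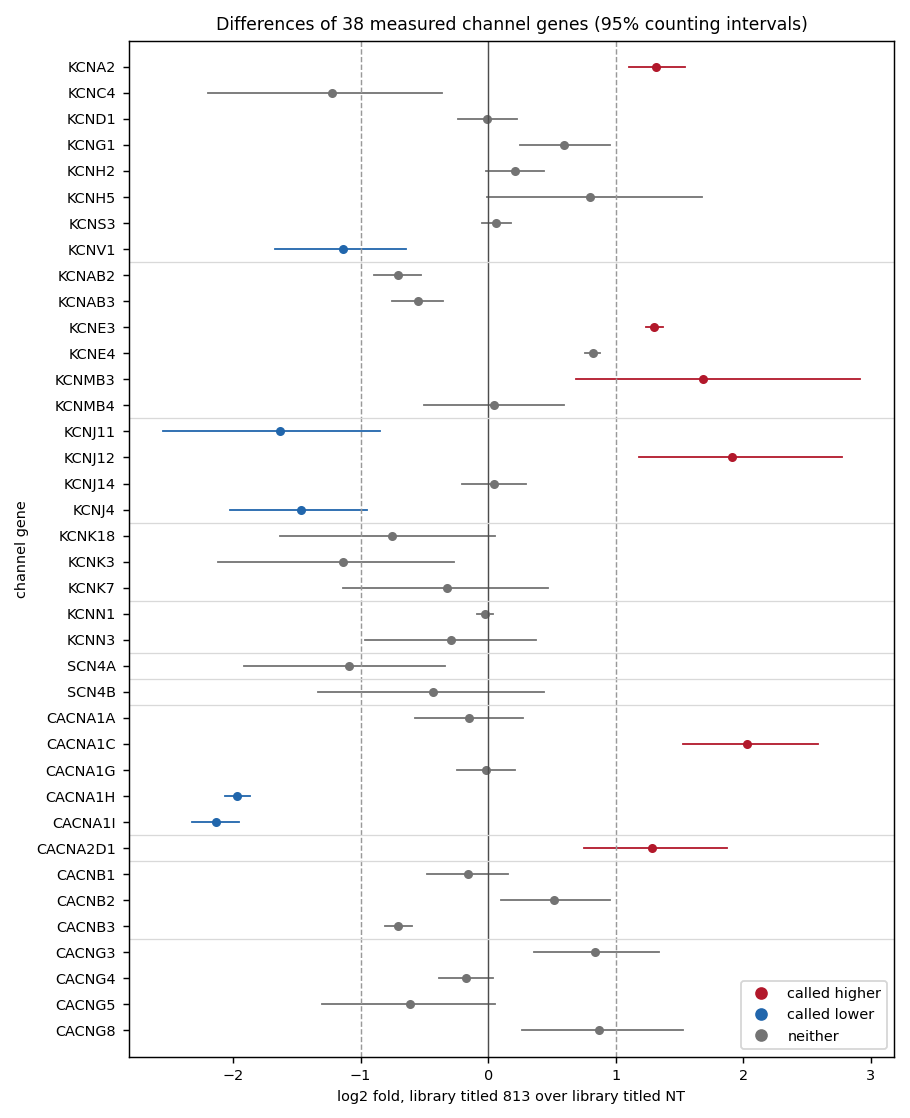
The log2 fold of each of 38 measured channel genes (813 library over NT library) is a point and its exact 95% counting interval a line, with subfamilies separated by grey lines and 2-fold marked by dashes. CACNA1C at 2.03 lies farthest to the right and CACNA1I at -2.13 farthest to the left.

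Promoter sequences were examined because the hairpin targets a DNA-binding factor. RefSeq windows (GRCh38.p14) from 250 bases before to 50 bases after the annotated start were matched for 100 of the 140 channel genes, 26 of the 43 measured and 7 of the 12 called genes. The letters TGTGGT, a core bound by RUNX factors, were searched on both strands, and no other form of the core was searched. They were in 0 of these 7 windows, in 1 of the 26 and in 10 of the 100, against 13.1% of all 27305 windows. The match among the measured genes lay in the window of KCNS3, a gene whose log2 fold interval includes 0. Such a match is a description of letters and not a binding site. The windows of CACNA1C and CACNA2D1, both higher in the 813 library, and of CACNA1I, which was lower, are shown because these 3 calcium channel genes differed in opposite directions and none of the windows holds the searched letters. Capitals mark CG dinucleotides, of which the windows hold 54, 29 and 6, beside a median of 14 over all windows. The other higher genes with a window held 23 (KCNE3), 4 (KCNA2) and 2 (KCNMB3), and the other lower gene, KCNJ4, held 4. Over the windows of these 5 higher and 2 lower genes, the number of CG dinucleotides thus overlapped, with medians of 23 and 5. Whether each window holds the start used in these cells was not tested. The first KCNA2 exon record (chr1:111174017-111174096 in hg19) held 0 reads in the 813 library and 1 in the NT library.
CACNA1C (GRCh38.p14 chr12:2052737-2053036, plus strand): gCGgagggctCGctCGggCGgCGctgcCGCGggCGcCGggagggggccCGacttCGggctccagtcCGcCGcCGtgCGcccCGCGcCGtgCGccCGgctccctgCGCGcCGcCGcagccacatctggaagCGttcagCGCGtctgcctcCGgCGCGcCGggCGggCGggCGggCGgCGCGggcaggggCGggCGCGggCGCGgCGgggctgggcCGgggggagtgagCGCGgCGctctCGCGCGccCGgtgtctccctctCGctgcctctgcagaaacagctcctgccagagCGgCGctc
CACNA2D1 (GRCh38.p14 chr7:82443907-82444206, minus strand): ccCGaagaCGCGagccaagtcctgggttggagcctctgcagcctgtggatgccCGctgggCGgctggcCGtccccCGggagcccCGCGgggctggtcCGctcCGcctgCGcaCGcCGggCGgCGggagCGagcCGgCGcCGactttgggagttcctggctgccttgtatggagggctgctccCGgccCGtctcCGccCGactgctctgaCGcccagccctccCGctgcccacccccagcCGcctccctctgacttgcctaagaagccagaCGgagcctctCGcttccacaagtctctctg
CACNA1I (GRCh38.p14 chr22:39570503-39570802, plus strand): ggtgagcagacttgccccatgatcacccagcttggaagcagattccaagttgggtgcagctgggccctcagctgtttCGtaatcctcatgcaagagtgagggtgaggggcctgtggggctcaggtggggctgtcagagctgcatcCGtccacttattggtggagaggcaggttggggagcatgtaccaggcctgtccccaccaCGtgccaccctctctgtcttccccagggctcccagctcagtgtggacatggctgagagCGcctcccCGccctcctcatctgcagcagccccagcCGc

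Levels can be compared between genes only per length, on the authors' RPKM scale (reads scaled to gene length and library size). KCNE3, KCNE4 and KCNN1 held the first 3 places among the channel genes in both libraries. KCNE3 stood at 74.4 RPKM in the 813 library and 27.6 in the NT library, KCNE4 at 73.8 and 38.2, and KCNN1 at 49.9 and 46.5. In the 813 library KCNE3 was the most abundant of the 140 and in the NT library it was KCNN1. Together these 3 genes took 65.3% and 43.5% of all channel pairs, a share that is not scaled to gene length. By pairs in the NT library, CACNA1H (16.6%) came before KCNE4 (15.3%) and KCNE3 (11.5%). Lower in the order, among others, were the voltage-gated subunit KCNS3 (19.6 and 17.1 RPKM), the calcium channel beta subunit CACNB3 (12.0 and 17.9 RPKM) and CACNA1H (4.26 and 15.2 RPKM). The CPM of the 43 measured genes ran from 0.654 to 284 in the 813 library and from 0.431 to 168 in the NT library.

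**Figure D2:**
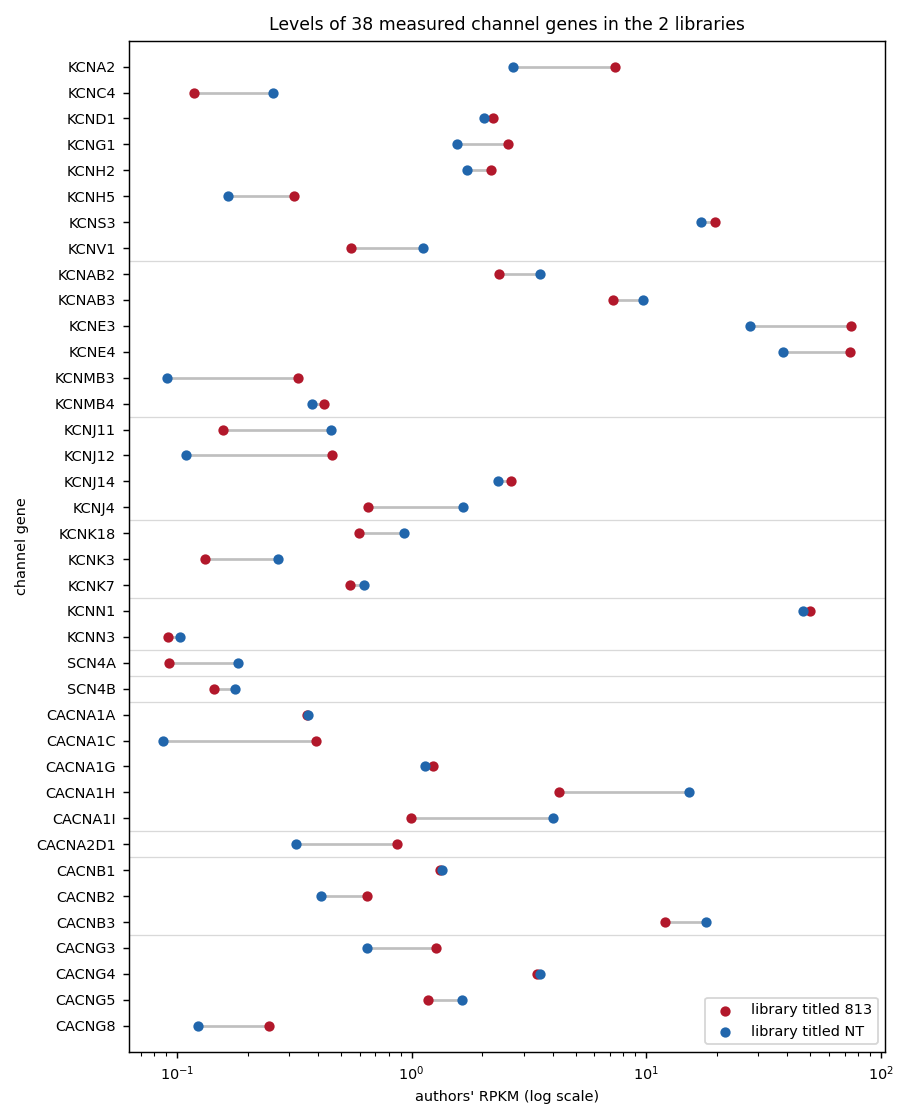
The authors' RPKM of 38 measured channel genes (log axis) is shown in the 813 library (red) and the NT library (blue), with a grey line joining them. KCNE3, KCNE4 and KCNN1 lie farthest to the right, and the widest gaps shown are at CACNA1C, KCNJ12, CACNA1I and KCNMB3.

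Among the potassium channel genes, the pore-forming voltage-gated alpha subunits had 12 of 40 members measured, with 1 higher, 1 lower and a median log2 fold of 0.03. KCNA2, a delayed-rectifier subunit of the Shaker family (chr1:111136202-111174096 in hg19), had 634 pairs in the 813 library and 241 in the NT library, or 25.9 and 10.4 CPM. The log2 fold was 1.32 (1.10 to 1.54). Its 6 exon records with at least 20 reads, 2 of which overlap, all lay above 0. From the 5′ to the 3′ end of the gene the log2 folds ran from 0.39 (-0.87 to 1.74) at chr1:111148850-111148975, with 28 and 20 reads, to 2.05 (1.21 to 3.09) at chr1:111136202-111136550, with 117 and 26 reads. The intervals of these records overlap. With a trend on transcript GC content and length removed, the log2 fold of KCNA2 was 0.95 and its call ended.

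KCNV1, a silent subunit that forms channels only together with other voltage-gated alpha subunits (chr8:110979233-110986959), was lower. It had 49 pairs in the 813 library and 103 in the NT library, a log2 fold of -1.14 (-1.67 to -0.64). All 3 of its exon records lay below 0, and it lost its call under plain total counts (-1.005) and under the authors' RPKM (-1.02). KCNS3, the most abundant voltage-gated alpha gene and also a silent subunit, had 1388 and 1260 pairs (log2 fold 0.06, -0.05 to 0.18). KCNG1, another silent subunit, had 174 and 109 pairs (0.60, 0.25 to 0.96) and was not called. Of these 3 silent subunits, 1 was called lower and the others lay above 0. The A-type channel gene KCND1 had 319 and 304 pairs (-0.01, -0.24 to 0.23), and KCNH2, which encodes the hERG channel, had 362 and 297 (0.21, -0.02 to 0.44). Of 16 KCNH2 records with at least 20 reads, 12 lay above 0, and the last record departed from the others at -0.75 with 43 and 69 reads. KCNC4 had 16 and 36 pairs (-1.22, -2.19 to -0.36) and KCNH5 37 and 20 (0.80, -0.01 to 1.67), and neither was called.

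The auxiliary potassium subunits had 6 of 16 members measured, with 2 higher and none lower, and a median log2 fold of 0.43. KCNE3 (chr11:74165886-74178600), a single-span subunit that alters the gating of KCNQ1 and other voltage-gated channels, had 6952 pairs in the 813 library and 2675 in the NT library, or 284 and 115 CPM. The log2 fold was 1.30 (1.24 to 1.37). Its 3 exon records were all higher, with log2 folds from 1.25 to 1.40, so the difference was of similar size along the transcript. KCNQ1, the best known partner of KCNE3, had 1 pair in the 813 library and 0 in the NT library. KCNE4, a single-span subunit known to inhibit several voltage-gated channels, had 6649 and 3576 pairs (272 and 154 CPM). At 0.82 (0.76 to 0.88) on the log2 scale it fell short of 2-fold.

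KCNMB3, a beta subunit of the large-conductance calcium-activated channel (chr3:178957537-178984838), had 35 pairs in the 813 library and 10 in the NT library, a log2 fold of 1.68 (0.69 to 2.91). Its 5 exon records with at least 20 reads lay above 0, from 0.83 to 2.13, but 3 of them are overlapping forms with the same 27 and 7 reads, and the record with 29 and 15 reads has an interval that includes 0 (-0.49 to 2.37). KCNMA1, the pore of that channel, had only 6 and 2 pairs. In GENCODE release 29, transcripts of PIK3CA match 47.0% of the longest KCNMB3 transcript, which has 7246 bases. The deposited KCNMB3 exons cover 3495 bases, and no exon base shared with PIK3CA was found among them. Their record at the 3′ end (chr3:178957537-178957852) had no read in either library. Whether any counted pair came from PIK3CA was not tested, and no strand setting is stated. PIK3CA itself had 23 and 24 pairs in the deposited counts. The cytoplasmic beta subunits KCNAB2 and KCNAB3, which bind voltage-gated alpha subunits, lay below 0 without being called. KCNAB2 had 414 and 643 pairs (-0.71, -0.89 to -0.53) and KCNAB3 354 and 492 (-0.55, -0.75 to -0.35). In KCNAB2 the first 8 exon records had 246 and 261 reads (log2 fold -0.16, -0.53 to 0.21), and the other 14 had 883 and 1461 reads (log2 fold -0.80, -0.98 to -0.63). These intervals do not overlap; the split was chosen after the values were seen. KCNMB4 had 61 and 56 pairs (0.05, -0.50 to 0.60).

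Inward rectifiers pass potassium more easily into the cell than out of it. They had 4 of 16 members measured, 1 higher and 2 lower, and 11 of the 16 had no pair in either library. KCNJ12, the Kir2.2 channel (chr17:21279699-21323179), had 73 pairs in the 813 library and 18 in the NT library, a log2 fold of 1.91 (1.19 to 2.78). KCNJ18, a near-identical copy that shares 38.4% of the exon bases of KCNJ12 in the deposited annotation, was listed with 0 pairs in both, so the 2 genes may not be separated by the counts. KCNJ4, the Kir2.3 channel (chr22:38822333-38851203), had 42 and 111 pairs (-1.47, -2.03 to -0.95). KCNJ11, the Kir6.2 pore of ATP-sensitive potassium channels (chr11:17406796-17410878), had 17 and 51 pairs (-1.63, -2.55 to -0.84). The calls of KCNJ4 (-1.02) and KCNJ11 (-1.27) ended once the trend on GC content and length was removed. KCNJ14 (Kir2.4), the most abundant inward rectifier per length, had 279 and 257 pairs (log2 fold 0.04, -0.21 to 0.29). The Kir2 genes thus stood on both sides of 0, with KCNJ12 higher, KCNJ4 lower and KCNJ14 near 0; KCNJ2, the Kir2.1 channel, had no pair in either library.

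The K2P genes (KCNK), whose channels carry background potassium current, had 3 of 15 members measured and no call. KCNK3 had 16 and 34 pairs (-1.14, -2.12 to -0.27), KCNK18 21 and 34 (-0.76, -1.63 to 0.06) and KCNK7 26 and 31 (-0.32, -1.14 to 0.47), so all 3 lay below 0 at low counts. Among the calcium- and sodium-activated potassium channels, KCNN1, a small-conductance SK channel, had 4031 pairs in the 813 library and 3899 in the NT library. Its log2 fold of -0.03 (-0.09 to 0.04) has the narrowest interval of the uncalled genes other than KCNE4, and the sign turned with plain total counts (0.11), the authors' RPKM (0.10) and the GC and length trend removed (0.30). KCNN3 had 37 and 43 pairs (-0.29, -0.97 to 0.38), and KCNN4, the intermediate-conductance channel, had 6 and 2.

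The sodium channel genes were the fewest to be measured. Only 1 of 10 alpha subunit genes was measured. SCN4A, the skeletal muscle sodium channel (chr17:62015914-62050278), had 22 and 45 pairs (log2 fold -1.09, -1.91 to -0.34) and was not called. Its first 10 exon records had no read in either library, and its 46 and 99 exon reads all lay in the other 14, of which 1 had none. This split was chosen after its values were seen. SCN2A, a neuronal alpha subunit, had 11 pairs in the 813 library and 1 in the NT library and was called higher (2.86, 0.60 to 8.81) when the level filter was dropped. SCN4B, an auxiliary beta subunit, had 21 and 27 pairs (-0.43, -1.33 to 0.44), and SCN2B and SCN3B had 4 or fewer pairs in each library.

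The calcium channel alpha1 subunits, which form the pore, had 5 of 10 members measured, 1 higher and 2 lower. Of the 3 T-type genes, whose channels open at low voltage, CACNA1H and CACNA1I were lower and CACNA1G was not. CACNA1H, the Cav3.2 channel (chr16:1203241-1271772), had 1048 pairs in the 813 library and 3886 in the NT library, or 42.8 and 167 CPM. The log2 fold was -1.97 (-2.07 to -1.87), or 3.91-fold less. CACNA1I, the Cav3.3 channel (chr22:39966758-40085740), had 303 and 1262 pairs, or 12.4 and 54.4 CPM (log2 fold -2.13, -2.32 to -1.95). CACNA1G, the Cav3.1 channel (chr17:48638429-48704832), had 326 and 313 pairs, or 13.3 and 13.5 CPM (log2 fold -0.02, -0.25 to 0.21). The interval of CACNA1G overlaps neither of the other two. Summed over the 3 genes the T-type level was 68.6 CPM in the 813 library and 235 in the NT library.

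The exon records of the T-type genes spread these differences along the transcripts. In CACNA1H all 34 records with at least 20 reads were lower in the 813 library, with log2 folds from -2.58 to -1.30. The smallest difference was at an 18-base exon (chr16:1262511-1262528) with 17 and 41 reads. In CACNA1I all 37 records were lower, from -3.44 to -0.998. In CACNA1G, 17 of 42 such records lay above 0 and 25 below, from -1.19 to 0.86, some of them overlapping forms of 1 exon. The difference thus did not rest on 1 exon record in CACNA1H or CACNA1I. The 5 measured neuron markers did not share a direction: SYP (-1.48, -1.67 to -1.29) and RBFOX3 (-2.59, -3.95 to -1.57) were called lower. NEFL (-0.81, -1.26 to -0.39), SNAP25 (0.07, -0.40 to 0.54) and SYT1 (0.89, 0.60 to 1.18) were not called. Their part in the result was not tested.

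**Figure D3:**
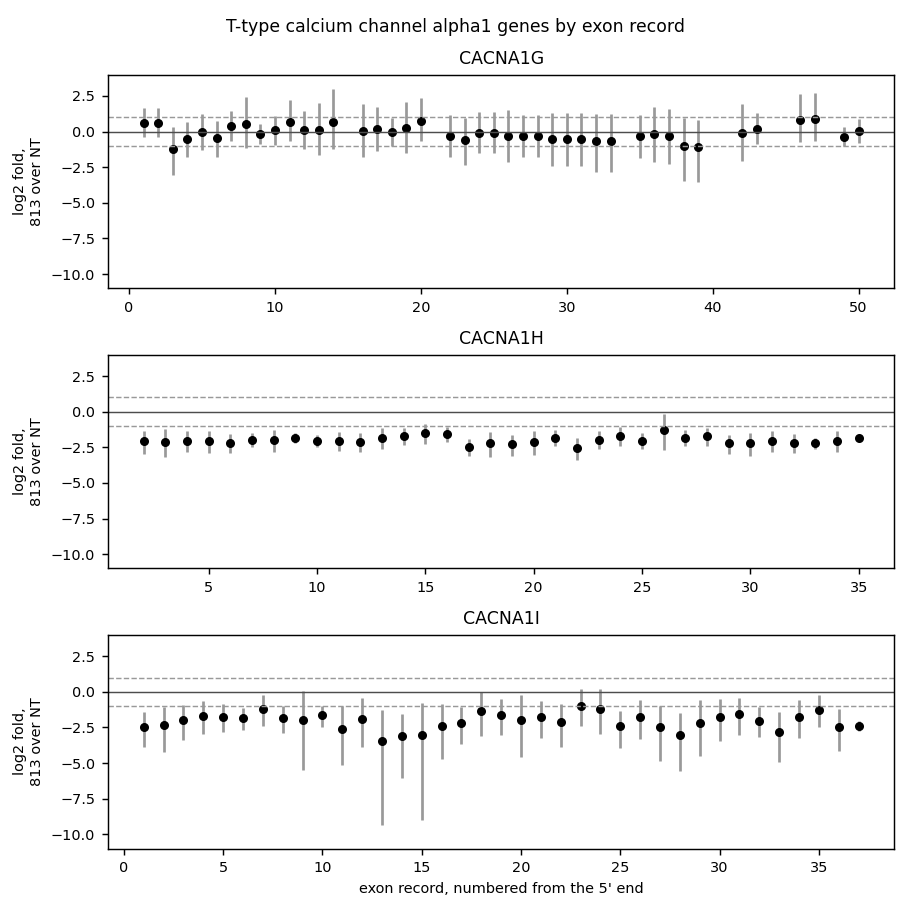
Each point is the log2 fold (813 library over NT library) of 1 exon record with at least 20 reads in CACNA1G, CACNA1H and CACNA1I, numbered from the 5′ end, with its exact 95% counting interval; dashes mark 2-fold. The points of CACNA1H lie between -2.58 and -1.30, whereas those of CACNA1G scatter about 0.

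The L-type gene CACNA1C differed in the opposite direction. CACNA1C, the Cav1.2 channel of heart and smooth muscle (chr12:2162416-2807115), had 169 pairs in the 813 library and 39 in the NT library, or 6.91 and 1.68 CPM (log2 fold 2.03, 1.53 to 2.58). Most of its reads were spread thinly over the gene: the first 55 of 56 exon records held 363 and 108 reads (log2 fold 1.66, 1.23 to 2.14). The last record (chr12:2800066-2807115) held 67 and 2 reads (log2 fold 4.43, 2.41 to 10.3), and departed from the rest of the gene. Records 7 to 14, a stretch chosen after its values were seen, had 28 and 31 reads (-0.22, -1.38 to 0.92). The antisense record LOC100652846 shares 3.05% of the exon bases of CACNA1C and was listed with 0 pairs in both libraries. The remaining alpha1 gene measured, CACNA1A (Cav2.1), had 95 and 100 pairs (-0.15, -0.57 to 0.27), and the others had 5 or fewer pairs.

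CACNA2D1, the alpha2delta subunit that brings high-voltage-activated channels to the surface and binds gabapentin (chr7:81579418-82073031), was higher as well. It had 101 pairs in the 813 library and 39 in the NT library, a log2 fold of 1.29 (0.75 to 1.87). Reads were densest at the 5′ end in both libraries: the first 6 of 39 records held 59.3% and 62.0% of its reads. These 6 records gave a log2 fold of 1.25 (0.62 to 1.94) and the other 33 gave 1.40 (0.61 to 2.30), with intervals that overlap. This split was chosen after its values were seen. The last record (chr7:81579418-81579824), which is among the 33, had 20 reads in the 813 library and none in the NT library.

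**Figure D4:**
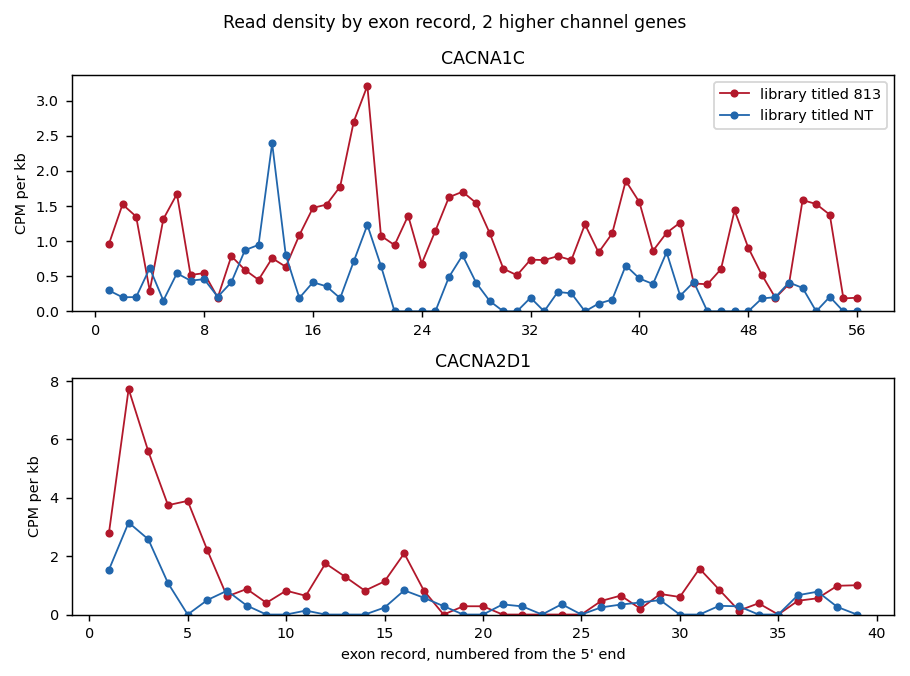
Read density (CPM of halved reads per kilobase) is drawn for each exon record of CACNA1C and CACNA2D1, from the 5′ end, in the 813 library (red) and the NT library (blue). CACNA1C is not higher over records 11 to 14, and CACNA2D1 is densest over its first records in both libraries.

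The calcium beta subunits, cytoplasmic partners that the high-voltage-activated alpha1 subunits need to reach the membrane, had 3 of 4 members measured and no call. CACNB3 had 1185 and 1833 pairs, or 48.4 and 79.0 CPM (log2 fold -0.70, -0.81 to -0.60), CACNB1 165 and 175 (-0.16, -0.48 to 0.15) and CACNB2 118 and 78 (0.52, 0.10 to 0.95). All 14 CACNB3 records with at least 20 reads were lower in the 813 library, from -0.87 to -0.46. CACNB2 was uneven: records 8 to 14 had 79 and 30 reads (1.29, 0.43 to 2.29) and records 16 to 19 had 23 and 47 (-1.08, -2.26 to -0.03), stretches chosen after their values were seen. The gamma family, which includes regulators of AMPA receptors, had 4 of 8 members measured and no call. CACNG4, the most abundant, had 356 and 381 pairs (-0.17, -0.39 to 0.04), CACNG3 104 and 55 (0.84, 0.36 to 1.34), CACNG8 66 and 34 (0.87, 0.26 to 1.52) and CACNG5 33 and 48 (-0.61, -1.30 to 0.05).

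**Figure D5:**
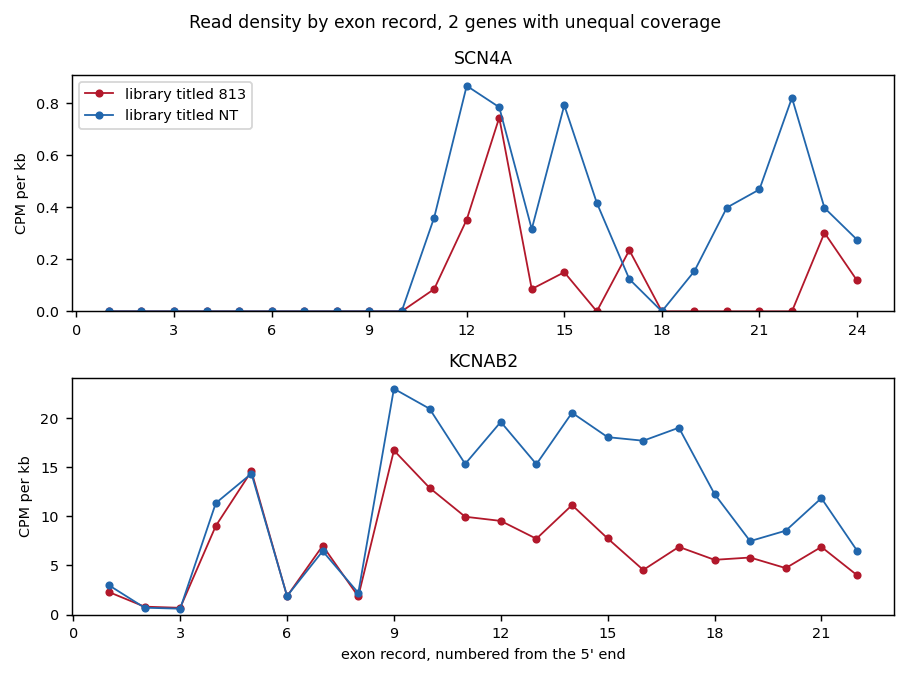
Read density (CPM of halved reads per kilobase) is drawn for each exon record of SCN4A and KCNAB2, from the 5′ end, in the 813 library (red) and the NT library (blue). SCN4A has no reads over records 1 to 10. In KCNAB2 neither library is above the other throughout records 1 to 8, and the NT library is above from record 9 on. The gap is small at record 19 (5.81 in the 813 library and 7.48 in the NT library). Both splits were chosen after the values were seen.

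Channel partners and other ion transport genes that are not among the 140 were read from a separate list of 58 genes. Of these, 39 were measured, with a median log2 fold of 0.04. By the same rule 3 of the 39 were higher and 6 were lower, beside 8.13% and 3.48% of all measured genes. The higher genes were STIM2, a sensor of calcium stores (464 and 182 pairs, log2 fold 1.27, 1.02 to 1.53), ITPR2, an inositol trisphosphate receptor (62 and 19 pairs, 1.60, 0.87 to 2.46), and ATP1B1, a beta subunit of the sodium pump (139 and 25 pairs, 2.38, 1.78 to 3.08). The lower genes included SLC8A2, a sodium-calcium exchanger (37 and 182 pairs, -2.36, -2.93 to -1.86), and ATP1B2, another beta subunit of the pump (95 and 219 pairs, -1.28, -1.64 to -0.93). Also lower were the proton channel HVCN1 (-1.75), the ubiquitin ligase NEDD4L (-1.44), which removes sodium channels from the surface, and the pacemaker channel HCN3 (-1.03). Among small G proteins that inhibit calcium channels, GEM had 61 and 27 pairs (1.09, 0.42 to 1.81) and was not called. REST, a repressor of many neuronal channel genes, had 47 and 33 pairs (0.43, -0.24 to 1.12).

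Median transcript GC content was 48.0% over the 7 higher and 61.4% over the 5 lower channel genes, beside 49.6% over all measured genes with a value. KCNJ12 (61.7%, higher) and KCNV1 (41.8%, lower) went against this order. A smooth trend on GC content and length took up 14.6% of the variance in log2 fold across 11866 genes. Removing it left 6 of 43 channel genes higher and 3 lower, beside 5.83% and 2.55% of all measured genes. The latter shares are slightly understated, since they are of 12252 genes and those without a GC value could not be called. All 140 channel genes had a value. Among the 9 calls that remained were KCNJ12 (2.17), CACNA1C (1.94), KCNMB3 (1.69), KCNE3 (1.18), CACNA2D1 (1.15), CACNA1I (-1.95), CACNA1H (-1.72) and KCNV1 (-1.57).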

How the data were processed

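Poly(A) RNA of 2 A673 libraries was analysed, 1 per group, grouped by title. The authors deposited raw counts per gene and per exon record and RPKM values, per the file headers. The submitters' processing notes name CASAVA 1.9, TopHat2 2.0.6, HTSeq and hg19; no annotation or strand setting is given in the sources used here. All deposited gene counts are even and were halved to pairs. Of 23398 gene rows, 33 repeats were dropped.

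Scaling used TMM in edgeR 4.0.16 (R 4.3.3), giving factors of 1.05 and 0.954. Log2 folds used a prior of 0.5 pairs, with Clopper-Pearson intervals (scipy 1.17.1, Python 3.11.15). Exon reads were halved for folds and densities, and exon records can overlap. The GC and length trend was a smooth fit (mgcv 1.9.3) on the longest GENCODE 29 transcript. Shared transcript sequence was sought with blastn 2.17.0 at 97% identity. The call rule was tested on simulated data whose only random spread was counting error. Spread between cultures was not simulated, so this could not show how often the rule miscalls genes between cultures.

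Named genes were all called members, the 3 most abundant measured members of each subfamily and uncalled members of 1.5-fold or more; KCNH2, KCNMB4, CACNA1A, SCN2A and members named only for their role were added after their values were seen. A few genes that this rule or the lists hold are counted but not reported by name or drawn. Members and lists were chosen with earlier results of these data known. DESeq2 1.42.0 gave alternative size factors.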

Additional observations from a re-analysis of the deposited data

How the results depend on the processing

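With plain total counts the median of all measured genes moved from 0.01 to 0.15 and that of the channel genes from -0.07 to 0.07. There were 7 higher and 4 lower calls (16.3% and 9.302%), beside 10.8% and 2.461% of all measured genes. With the authors' RPKM the channel median was 0.06 with the same counts of calls, beside 10.7% and 2.498% of all measured genes. The higher share of all genes thus rose from 8.13% in both runs, while that of the channel genes did not. In both, KCNV1 was the call that ended. With DESeq2 size factors, with the 20 most abundant genes left out of the library size and with a prior of 2 pairs, all 12 calls remained. With the GC and length trend removed the lower calls were 3 and the log2 fold of RUNX3 was -1.73. At 5 CPM or more, 20 channel genes were measured, 4 higher and 2 lower, since fewer genes were read (7.88% and 3.60% of all genes at that level). Without the rule on the interval 9 were lower, KCNC4, KCNK3 and SCN4A being among those added (20.9%, beside 4.33% of all measured genes). At 1.5-fold with the interval beyond no difference 11 were higher and 11 lower (25.6% each), beside 19.8% and 11.2% of all measured genes. With gene counts as deposited 7 were higher and 7 lower (16.3% each), beside 9.15% and 4.05% of all measured genes. With sums of exon counts 7 were higher and 6 lower (16.3% and 13.95%), beside 8.06% and 3.60%. With no level filter 104 channel genes were read, of which 8 were higher and 5 lower. These shares, 7.69% and 4.81%, lay closer to those of all genes read (6.08% and 2.596%) than in the main run. No called gene changed sign under any alternative run. No paired analysis was possible because each group has 1 library. Depth limits genes under 1 CPM, where fewer than 25 pairs in the 813 library and 24 in the NT library leave intervals several fold wide, and 1 library per group leaves the spread between cultures unknown.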
